A study of Mus musculus with 2 samples.

Results

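The small RNA silencing machinery was followed in mouse neural stem cells through 10 genes: the Argonautes Ago1, Ago2, Ago3 and Ago4, the RNase Dicer1 and its partner Tarbp2, the Microprocessor genes Drosha and Dgcr8, and the GW182 genes Tnrc6a and Tnrc6b. They were chosen by symbol, because an siRNA was transfected into both cultures, and each matched 1 row among the 17359 genes of the deposited table. All 10 reached a mean level of at least 1 TPM (a transcript abundance corrected for length, with the same total in both libraries), as did 12882 genes in all. One library came from cells given an siRNA against Chd4 (siChd4, genotype label Chd4 knockdown), and the other from cells given a scrambled siRNA (siSCR, genotype label control). Chd4 is a chromatin remodelling ATPase that works in the NuRD complex. The series as a whole concerns the nucleoporin Seh1 in neurogenesis. Neither the origin and age of the cells nor the design, dose and timing of the transfection is stated in the labels.

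An siRNA works by entering the same machinery as the cell's own microRNAs (miRNAs). In the nucleus Drosha, held on its substrate by Dgcr8, cuts hairpins out of long primary transcripts, exportin-5 carries them to the cytoplasm, and Dicer, helped by the double-stranded RNA-binding protein of Tarbp2, trims them to a short duplex. An Argonaute protein keeps 1 strand and uses it to find messenger RNAs. Ago2 is the mammalian Argonaute known for cutting a fully matched target, the reaction siRNA silencing is built on. Argonautes recruit the GW182 proteins of the Tnrc6 genes, which bring in deadenylases and lead to decapping and decay. Dicer is known to be needed in neural progenitors for their survival and for the making of neurons.

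The libraries held 2.0072e+07 estimated counts in siChd4 and 1.98168e+07 in siSCR. The targeted gene, Chd4, read 203 TPM in siChd4 against 250 TPM in siSCR, or 0.815-fold (95% counting interval 0.795 to 0.836). Of the genes with a mean of at least 1 TPM, 19.4% had a lower ratio than Chd4. Of 10 neural stem cell markers 6 were above 0 and 4 below on the log2 scale, with a median log2 ratio of 0.09. Among them, Nes had 396 TPM in siChd4 against 328 TPM in siSCR, Sox2 had 336 TPM in siChd4 against 314 TPM in siSCR, and Notch1, the lowest ratio, had 60.8 TPM in siChd4 against 90.8 TPM in siSCR. Neuron markers summed to 603 TPM in siChd4 against 456 TPM in siSCR, mostly from Map2 (516 TPM in siChd4, 427 TPM in siSCR). All 7 were above 0, whereas 55.3% of all genes were below 0. Counting intervals of the fold lay above 1 for 5 of the 7, against 25.1% of all genes. Those of Rbfox3 (0.946 to 2.62) and Stmn2 (0.989 to 3.18) include 1. Tubb3 had the highest ratio of the 7 (40.02 TPM in siChd4, 8.70 TPM in siSCR). Oligodendrocyte lineage markers summed to 41.9 TPM in siChd4 against 14.5 TPM in siSCR, with all 4 that reached 1 TPM above 0, while the mature marker Mog had 0.07 TPM in siChd4 against 0.09 TPM in siSCR. Sums for microglia (0.64 TPM in siChd4, 0.24 TPM in siSCR), endothelial cells (2.46 TPM in siChd4, 1.41 TPM in siSCR) and fibroblasts (3.21 TPM in siChd4, 1.42 TPM in siSCR) were low, and the microglial marker Aif1 was listed at 0 in siSCR. These markers move with every result given here, and their part in those results was not tested. With 1 library in each group no test between conditions was possible, each difference is between these libraries, and intervals cover counting error only. In RNA from whole cultures, fewer cells of a type and less RNA per cell cannot be told apart.

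Among the 10 genes, Ago2 and Tnrc6b were lower in the siChd4 library by more than 1.5-fold, and none was higher by that much. The limit was set on TPM plus 1, the scale of all log2 ratios here. Over all 12882 genes, 4.47% were at least 1.5-fold lower and 6.75% at least 1.5-fold higher. Ago2 was also the 1 member at least 2-fold lower, which held for 0.629% of all genes. The log2 ratio was below 0 for 8 of 10 members and for 55.3% of all genes, but Drosha and Dgcr8, the members nearest 0, turned to 0.02 and 0.06 under upper quartile scaling. With the trend of the ratio on transcript length subtracted, 5 of 10 were below 0, since Ago4 (0.06) turned as well. That trend was fitted to all 12882 genes, whose ratios then centre near 0 by construction (median 0.0021). The counting interval of the fold lay below 1 for 5 members (Ago2, Ago3, Dicer1, Tnrc6a and Tnrc6b), against 34.1% of all genes, and above 1 for 2 members (Ago1 and Tarbp2), against 25.1% of all genes. The median log2 ratio was -0.17 over the members and -0.04 over all genes.

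**Figure D1:**
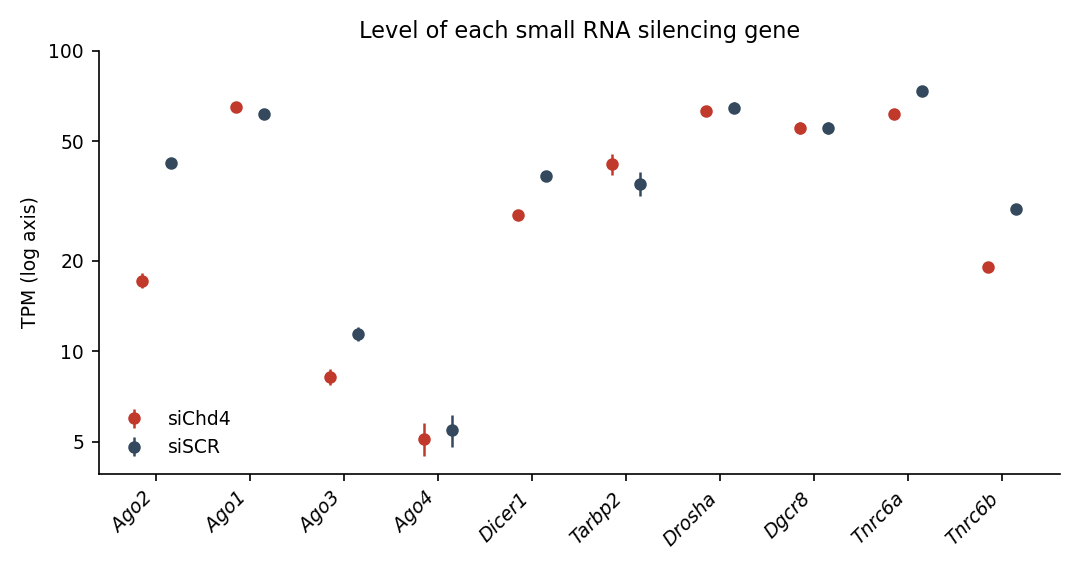
TPM of the 10 genes on a log axis, siChd4 in red and, to its right, siSCR in dark blue; points are the single library of each group and bars are 95% counting intervals. Ago2 stood at 17.2 TPM in siChd4 against 42.3 TPM in siSCR, the widest gap of the 10 on this axis, while the points for Drosha and Dgcr8 lie level.

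Ago2, the slicing Argonaute, had 17.2 TPM in siChd4 against 42.3 TPM in siSCR, from 1142 estimated counts in siChd4 and 2663 in siSCR. Its fold was 0.407 (0.379 to 0.436) and its log2 ratio -1.25, and 0.241% of the genes tested had a lower ratio. Ago1, which is not known for slicing, was the most abundant of the 4, with 65.0 TPM in siChd4 against 61.6 TPM in siSCR (1.06-fold, 1.01 to 1.11). Ago3 had 8.23 TPM in siChd4 against 11.4 TPM in siSCR (0.721-fold, 0.663 to 0.782). Ago4, the scarcest of the 10, had 5.09 TPM in siChd4 against 5.46 TPM in siSCR, and the interval of its fold, 0.784 to 1.11, includes 1. The 4 paralogs did not move together: Ago2 was far lower, Ago3 moderately lower, Ago4 level within counting error and Ago1 slightly higher.

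The make-up of the Argonaute transcripts differed with Ago2. Together the 4 genes summed to 95.6 TPM in siChd4 against 121 TPM in siSCR, a ratio of 0.791. Without Ago2, the other 3 summed to 78.4 TPM in siChd4 against 78.5 TPM in siSCR, a ratio of 0.998. Ago2 took 18.1% of Argonaute counts in siChd4 (exact Clopper-Pearson 95% interval 17.1% to 19.04%) and 34.2% in siSCR (33.1% to 35.2%). Ago1 made up 68.1% of Argonaute TPM in siChd4 and 51.0% in siSCR. For each Ago1 transcript there were 0.264 Ago2 transcripts in siChd4 and 0.686 in siSCR.

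**Figure D2:**
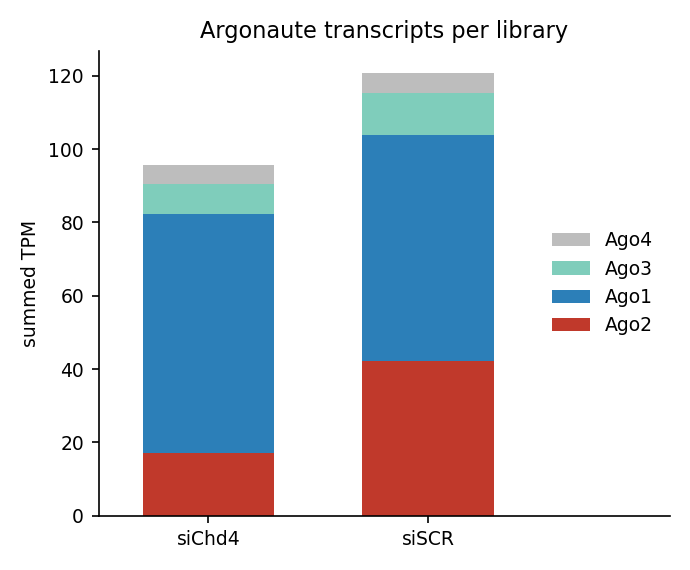
Summed TPM of the 4 Argonaute genes in the siChd4 library (left bar) and the siSCR library (right bar), 1 library each, split by gene. The Ago2 block at the base is 17.2 TPM high in siChd4 and 42.3 TPM in siSCR, and the blocks above it add up to 78.4 TPM in siChd4 against 78.5 TPM in siSCR.

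In the mouse genome Ago3, Ago1 and Ago4 stand next to each other on chromosome 4, on the same strand and in that order, whereas Ago2 lies on chromosome 15 between Chrac1 and Ptk2 (RefSeq annotation of GRCm38.p6, used for gene order only). Exons of Ago2 overlap those of Chrac1 on the opposite strand over 219 bases, 1.56% of the annotated exon bases of Ago2, and whether counting used strand is not stated. Chrac1, a gene of the CHRAC chromatin complex, had 51.4 TPM in siChd4 against 57.5 TPM in siSCR (0.893-fold, 0.769 to 1.04). Paralogs can exchange reads where their sequences match. Of the 50-base words in the longest GENCODE M21 coding transcript, 1.74% in Ago1 and 0.778% in Ago3 also occur in another Argonaute, within stretches of up to 170 bases. The share was 0.0291% in Ago2, where the longest shared stretch was 53 bases, and no word of Ago4 was shared.

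Dicer1, which makes the final cut in miRNA maturation, was lower in siChd4. Its level was 28.4 TPM in siChd4 against 38.2 TPM in siSCR (0.743-fold, 0.703 to 0.786), a log2 ratio of -0.42. Tarbp2, whose protein holds the duplex for Dicer and Argonaute, had 41.9 TPM in siChd4 against 36.1 TPM in siSCR (1.16-fold, 1.03 to 1.32), so these partners lay on opposite sides of 1. Prkra encodes PACT, the other double-stranded RNA-binding partner of Dicer, and had 52.4 TPM in siChd4 against 45.7 TPM in siSCR (1.15-fold, 1.03 to 1.29). The ratio of Dicer1 to Tarbp2 transcripts was 0.678 in siChd4 and 1.06 in siSCR.

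The Microprocessor genes were level. Drosha, the nuclear RNase, had 63.0 TPM in siChd4 against 64.6 TPM in siSCR (0.976-fold, 0.921 to 1.03). Dgcr8, its RNA-binding partner, had 55.4 TPM in siChd4 against 55.5 TPM in siSCR (0.998-fold, 0.937 to 1.06). Both intervals include 1, so no difference was detectable at this depth. The Dgcr8 transcript itself carries hairpins that the Microprocessor is known to cut. RefSeq places their mature sequences on chromosome 16 (GRCm38.p6, minus strand), within exons of Dgcr8 as annotated in GENCODE M21. Those of miR-1306 lie in the coding sequence at chr16:18284248-18284310, and those of miR-3618 at chr16:18284562-18284623. They are shown because they make Dgcr8 both a part and a substrate of the complex, with the seed (bases 2 to 8) in capitals.
mmu-miR-1306-5p: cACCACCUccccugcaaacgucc
mmu-miR-1306-3p: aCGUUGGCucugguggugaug
mmu-miR-3618-5p: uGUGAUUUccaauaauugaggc
mmu-miR-3618-3p: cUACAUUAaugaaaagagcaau
The 4 seeds differ from each other, and no level of these miRNAs was measured. Dgcr8 exons also overlap those of Trmt2a on the opposite strand over 825 bases, 10.7% of its exon bases, and Trmt2a, a tRNA methyltransferase gene, had 54.3 TPM in siChd4 against 50.6 TPM in siSCR (1.07-fold, 0.986 to 1.17).

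The GW182 genes were lower in siChd4 to unequal degrees. Tnrc6b had 19.1 TPM in siChd4 against 29.9 TPM in siSCR (0.639-fold, 0.608 to 0.671), a log2 ratio of -0.62, and 3.78% of the genes tested had a lower ratio. It fell short of the 1.5-fold limit under upper quartile scaling (-0.56) and on FPKM (-0.53). Tnrc6a, the most abundant of the family, had 61.4 TPM in siChd4 against 73.2 TPM in siSCR (0.839-fold, 0.804 to 0.875). The third paralog, Tnrc6c, had 31.2 TPM in siChd4 against 34.7 TPM in siSCR (0.899-fold, 0.847 to 0.953). All 3 intervals lie below 1, and those of Tnrc6b and Tnrc6a do not overlap, but Tnrc6c turned to a log2 ratio of 0.06 once the length trend was subtracted. The family summed to 112 TPM in siChd4 against 138 TPM in siSCR.

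**Figure D3:**
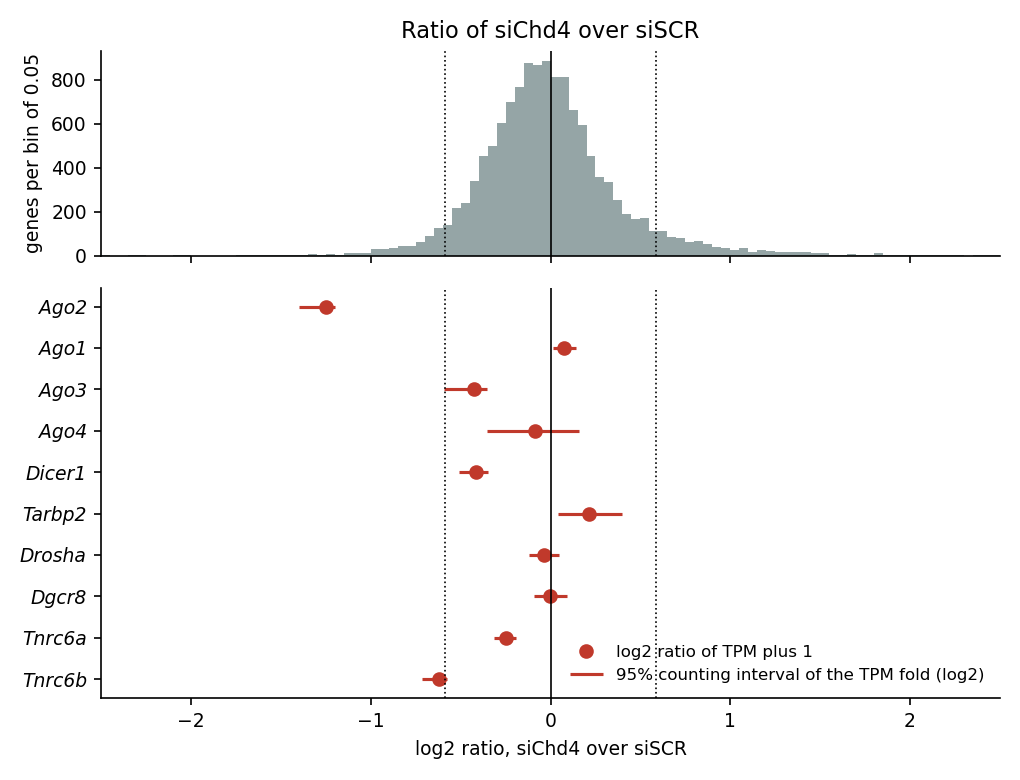
Upper panel, number of genes per bin of log2 ratio (siChd4 over siSCR) over the 12882 genes tested, with values beyond the axis put in the end bins; lower panel, the 10 genes as points with lines for the 95% counting interval of the TPM fold, and dotted lines at 1.5-fold. Ago2 (-1.25) and Tnrc6b (-0.62) lie left of the 1.5-fold line, and Ago1 and Tarbp2 lie right of 0.

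Transcript length moved with these ratios. Length was taken from the ratio of counts to FPKM in the table, and 6 of the 10 genes (Ago1, Ago2, Ago3, Dicer1, Tnrc6a and Tnrc6b) are among the 1289 longest genes tested, those above 6.43 kb. Among these 1289 the median log2 ratio was -0.21, and 9.70% were at least 1.5-fold lower. Across the 10 members, which share both libraries, Spearman's rho between length and log2 ratio was -0.81 (n = 10), and across all 12882 genes it was -0.18. Tnrc6b (17.1 kb) and Ago3 (14.9 kb) are the longest members and Tarbp2 (1.65 kb) the shortest.

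With the trend over all genes subtracted, Ago2 remained at a log2 ratio of -1.05. Tnrc6b was then at -0.27, Dicer1 at -0.19, Ago3 at -0.11 and Tnrc6a at -0.05, so that Ago2 alone of the 10 was past 1.5-fold. Ago1 moved up to 0.26, the median of the 10 was -0.0063, and Chd4 was at -0.14. Ago1 (7.22 kb) and Ago2 (7.98 kb) are close in length, and of the 1289 longest genes 0.621% were at least 2-fold lower. The lengths behind the values differed little between the libraries for any member (ratios of 0.975 to 1.03). The Ago2 length in the table is shorter than the 13800 bases of its longest GENCODE M21 transcript.

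**Figure D4:**
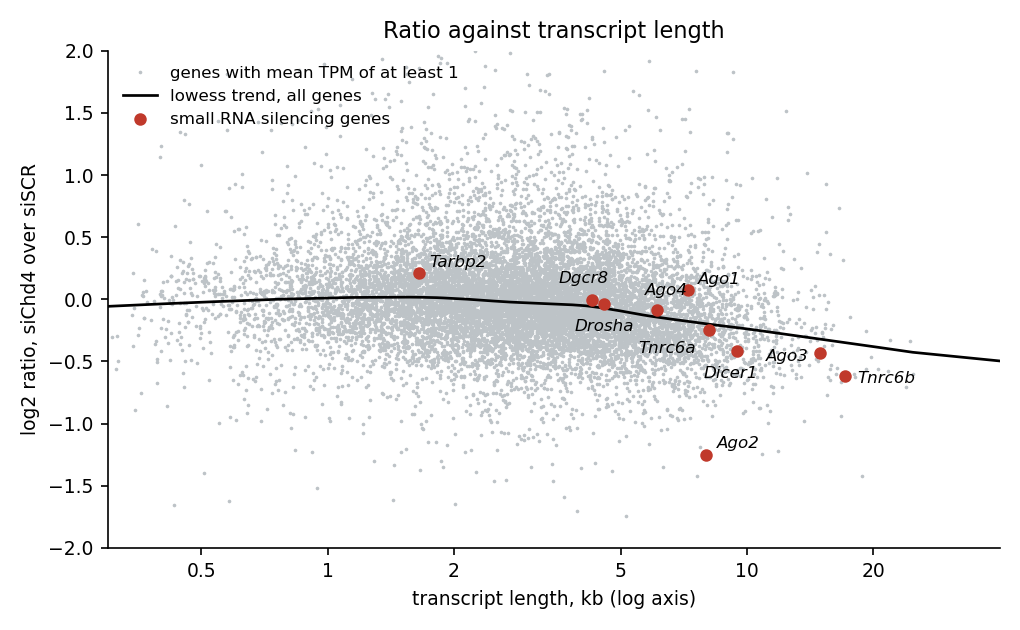
Log2 ratio (siChd4 over siSCR) against transcript length in kb on a log axis, with all genes tested in grey (points beyond the axes not drawn), their lowess trend as a black line and the 10 genes in red. Most of the 10 genes lie near the trend, and Ago2, at 7.98 kb and -1.25, lies far below it.

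Before any correction for length, the wider pathway held no log2 ratio as low as that of Tnrc6b. Over 5 lists of genes that act before, with or after the 10, 68 genes reached a mean of 1 TPM. Of these, 0 passed 1.5-fold in either direction, against 4.47% of all genes lower and 6.75% higher by that much. Their median log2 ratio was -0.13, against -0.04 over all genes, and their range was -0.51 to 0.43. The ratio was below 0 for 45 of the 68 (66.2%), against 55.3% of all genes. Counting intervals lay below 1 for 38 of them (55.9%, against 34.1% of all genes) and above 1 for 9 (13.2%, against 25.1%). With the length trend subtracted, 9 of the 68 lay below Tnrc6b (-0.27), the lowest being the CCR4-NOT gene Cnot9 (-0.43).

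Upstream, 12 Microprocessor cofactors and export genes had a median log2 ratio of -0.16, with 10 below 0, against 55.3% of all genes. The median was -0.11 with the length trend subtracted. Xpo5, which encodes exportin-5, had 67.8 TPM in siChd4 against 76.4 TPM in siSCR (0.887-fold, 0.843 to 0.934). Hnrnpa1, an RNA-binding protein gene that can aid the cutting of certain primary miRNAs, had 1532 TPM in siChd4 against 1986 TPM in siSCR. Ddx5, a Microprocessor helicase gene, had 743 TPM in siChd4 against 825 TPM in siSCR.

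The 19 Dicer and Argonaute partners had a median log2 ratio of 0.03, with 9 below 0 (against 55.3% of all genes) and 10 above. The chaperones that open Argonaute for loading were the most abundant, Hspa8 with 2930 TPM in siChd4 against 2730 TPM in siSCR, and Hsp90ab1 with 2381 TPM in siChd4 against 2274 TPM in siSCR. Zswim8, named after its value was seen because its ubiquitin ligase is known to act on Argonaute proteins, had 79.1 TPM in siChd4 against 60.9 TPM in siSCR (1.299-fold, 1.23 to 1.37).

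Downstream, 13 deadenylase genes had a median log2 ratio of -0.13 (-0.10 with the length trend subtracted). Of these, 10 were below 0, against 55.3% of all genes, and 0 had an interval above 1, against 25.1%. Cnot6, a catalytic subunit of CCR4-NOT, had 175 TPM in siChd4 against 178 TPM in siSCR. Cnot1, its scaffold, had 84.8 TPM in siChd4 against 111 TPM in siSCR (0.763-fold, 0.737 to 0.789). The 19 decapping and decay genes, Tnrc6c among them, had a median of -0.15, with 12 below 0, against the same 55.3%. Their median was -0.03 with the length trend subtracted. Pabpc1, a poly(A)-binding protein gene, had 514 TPM in siChd4 against 553 TPM in siSCR, and Ddx6, a helicase gene of P bodies, had 150 TPM in siChd4 against 191 TPM in siSCR. Xrn1, the 5′ to 3′ exonuclease gene and the lowest ratio of the 68, had 12.6 TPM in siChd4 against 18.5 TPM in siSCR (0.684-fold, 0.631 to 0.741).

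Of 8 genes for let-7 control and small RNA tailing and trimming, 5 reached 1 TPM, with a median log2 ratio of -0.13. Among them, Tent2 had 47.6 TPM in siChd4 against 49.2 TPM in siSCR, and Tut7 had 37.9 TPM in siChd4 against 41.4 TPM in siSCR. Both add nucleotides to the ends of small RNAs. Lin28a and Lin28b, which block let-7 maturation, had at most 3.17 counts in either library.

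**Figure D5:**
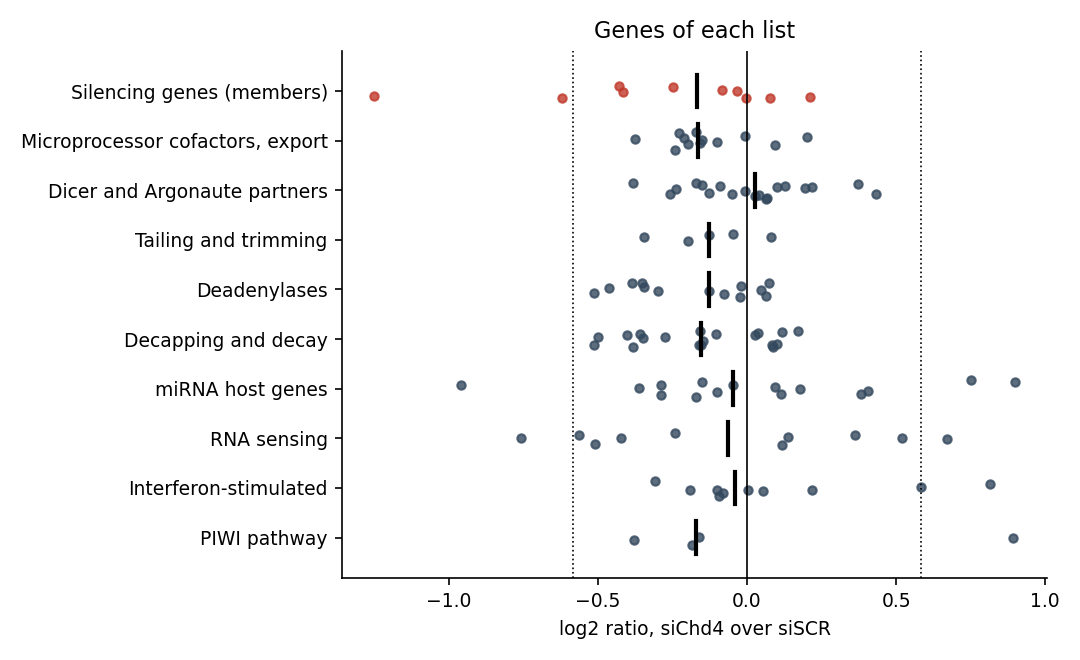
Log2 ratio (siChd4 over siSCR) of each gene with a mean of at least 1 TPM, 1 row of points per list with the 10 silencing genes in red at the top; black bars are medians, dotted lines mark 1.5-fold, and points are spread vertically only for clarity. Ago2 (-1.25) and Tnrc6b (-0.62) lie outside the range of the 5 pathway lists below them, which runs from -0.51 to 0.43.

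The miRNAs themselves were not measured, but some genes that carry their hairpins were. Of 26 genes listed as hosts, 15 were analysed here, with a median log2 ratio of -0.05. The other 11 had no row in the deposited table, so their levels are not known. A RefSeq hairpin was matched on the gene's own strand for 12 of the 15, and not for Dnm2, Dnm3 and Sfmbt2. Pank3, a pantothenate kinase gene that carries Mir103-1 in an intron, was the 1 past 1.5-fold lower, with 72.6 TPM in siChd4 against 142 TPM in siSCR (0.511-fold, 0.493 to 0.530). Egfl7, which carries Mir126a, was past 1.5-fold higher, with 9.53 TPM in siChd4 against 5.26 TPM in siSCR (1.81-fold). Dnm3, with no hairpin matched, was also past 1.5-fold higher, with 8.87 TPM in siChd4 against 4.29 TPM in siSCR (2.07-fold). Pank1, named because it carries Mir107, had 6.07 TPM in siChd4 against 8.08 TPM in siSCR (0.751-fold, 0.654 to 0.863). The miRNAs of Pank3 and Pank1 are known to target Dicer in human cells. Their RefSeq mature sequences are shown with the shared seed in capitals, miR-103 at chr11:35782447-35782469 (plus strand) and miR-107 at chr19:34820700-34820722 (minus strand, both GRCm38.p6).
mmu-miR-103-3p: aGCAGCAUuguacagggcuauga
mmu-miR-107-3p: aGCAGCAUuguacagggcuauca

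The word ATGCTGC, which pairs with that seed, occurs in the longest annotated 3′ UTR (GENCODE M21, sense strand only) of 8 of the 10 genes and of 11.4% of 20831 genes. Any short word is met more often in a long UTR, and these include 11.6 kb in Tnrc6b and 11.1 kb in Ago2, against a median of 0.976 kb over all genes. The Dicer1 site and the first Ago2 site, with the word in capitals and followed by an A, are shown beside the single Tarbp2 site, which is not followed by an A.
Dicer1: tgatgcttcatgtaATGCTGCactta
Ago2: aatccccctttagtATGCTGCatatg
Tarbp2: ggagtcctgaataaATGCTGCtcttt
The Ago2 site starts at base 10034 of that UTR, beyond the 7.98 kb that the table gives Ago2 as a whole. Dicer1 was at 0.743-fold and Ago2 at 0.407-fold, while Ago1 and Dgcr8, which hold the same word followed by an A, were at 1.06-fold and 0.998-fold. Like that of Tarbp2 (1.16-fold), the sites of Tnrc6b (0.639-fold), Ago3 (0.721-fold) and Ago4 (0.932-fold) are not followed by an A. The part of these sites in the ratios was not tested.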

How the data were processed

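The authors deposited 1 table with estimated counts, FPKM and TPM per gene for each library, per the file headers. Per the submitters' processing notes, the build was mm39. Aligner, counting tool and use of strand are not stated there.

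Log2((TPM in siChd4 + 1)/(TPM in siSCR + 1)) was computed for the 12882 genes averaging at least 1 TPM. Folds are ratios of TPM without the pseudocount, and their 95% intervals are exact Clopper-Pearson intervals on rounded estimated counts. Simulated independent Poisson counts checked the code only, since such intervals cover those counts by construction. Reads are not independent molecules, so the intervals cover counting error only. A floor of 3 counts is 0.149 CPM in siChd4 and 0.151 CPM in siSCR. Length is counts over FPKM, with a lowess trend (span 0.3). There are no p-values, since each group is 1 library.

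The 10 genes, the 16 gene lists and the alternatives were chosen with earlier results of these data known. Named were the 10 genes, Chd4, Tnrc6c, Xpo5, Prkra and, per pathway list, up to 3 genes per direction past 1.5-fold or else the 2 most abundant. Cnot1, Cnot9, Xrn1, Zswim8, Pank1, Chrac1, Trmt2a, Lin28a, Lin28b, Dnm2, Sfmbt2 and the marker genes singled out were named after their values were seen. RefSeq and GENCODE M21 sequences and coordinates are on GRCm38 and were not set against mm39. Alternatives were a pseudocount of 0.1, median-of-ratios, upper quartile and TMM scaling (edgeR 4.0.16), FPKM, length trend subtraction, 1 length per gene, and other filters and limits. Python 3.11.15, scipy 1.17.1, statsmodels 0.14.6 and R 4.3.3 were used.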

Additional observations from a re-analysis of the deposited data

How the results depend on the processing

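The members' median log2 ratio stayed below 0 under every setting run. It was -0.0063 after subtraction of the length trend and between -0.18 and -0.11 elsewhere. Across the 10 genes, the lower limits of the counting intervals had a median of -0.33 and the upper limits -0.07. These are log2 folds without the pseudocount, and -0.0063 lay outside them. They are not a counting interval of the members' median, which was not computed. The number of members at least 1.5-fold lower was 1 rather than 2 after length trend subtraction, upper quartile scaling or a change to FPKM, since Tnrc6b fell short. Of all genes, 3.26%, 3.47% and 2.29% were that much lower under these settings, in the same order, against 4.47% in the main setting. The member count was 4 at a looser limit, with Ago3 and Dicer1 added, where 17.1% of all genes were lower. It was 1 at 2-fold, where 0.629% of all genes were lower. Chd4 was at -0.24 with upper quartile scaling, -0.23 on FPKM and -0.14 after length trend subtraction. Upper quartile scaling and FPKM each rescale a library by 1 factor for all genes. The median over all genes moved with them, from -0.04 to 0.02 under each. The 10 genes gave 70 values under 7 other settings, of which 56 stayed within counting error, 14 moved beyond it and 0 turned the sign of a gene whose interval excluded 1. Ago2 ran from -1.29 to -1.05. Depth limits Ago4 most, with 255 counts in siChd4 and 265 in siSCR. No paired analysis was possible because there was a single library per condition, and for the same reason none could be left out.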

Other observations

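Genes that sense double-stranded RNA, through which a transfected duplex can be noticed, did not move in 1 direction. Of 17 listed, 10 reached 1 TPM, with 5 below 0 (against 55.3% of all genes), 5 above 0 and a median log2 ratio of -0.06. Tlr3, the endosomal sensor gene, had 7.31 TPM in siChd4 against 13.1 TPM in siSCR (0.559-fold, 0.479 to 0.653). Its adaptor gene Ticam1 lay on the other side, with 10.9 TPM in siChd4 against 6.47 TPM in siSCR (1.68-fold, 1.36 to 2.08). Eif2ak2, the gene of the sensor kinase PKR, named after its value was seen, had 17.8 TPM in siChd4 against 26.7 TPM in siSCR (0.665-fold, 0.609 to 0.725), short of 1.5-fold on the TPM plus 1 scale. Interferon-stimulated genes had a median of -0.04 over 10 genes. Ifit3, the 1 past 1.5-fold on the TPM plus 1 scale, had 2.41 TPM in siChd4 against 0.94 TPM in siSCR (2.56-fold, 1.41 to 5.10). Ifi27, named after its value was seen, fell just short on that scale. It had 26.2 TPM in siChd4 against 17.1 TPM in siSCR (1.53-fold, 1.23 to 1.91).

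The PIWI pathway, the germline branch of small RNA silencing, was near the detection limit. Of 14 genes listed, 4 reached 1 TPM, and neither Piwil2 (0.25 TPM in siChd4, 0.38 TPM in siSCR) nor Piwil4 (0.79 TPM in siChd4, 0.58 TPM in siSCR) did. Tdrkh, a Tudor domain gene named for its abundance, had 115 TPM in siChd4 against 129 TPM in siSCR. Pld6, which encodes a mitochondrial surface protein, was the 1 past 1.5-fold on the TPM plus 1 scale. It had 3.90 TPM in siChd4 against 1.64 TPM in siSCR (2.38-fold, 1.45 to 4.15).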
